A study of Mus musculus with 22 samples.

Results

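Tumours taken after a single dose of beta-glucan were compared with untreated tumours, 11 of the 22 tumours in the series: 6 given beta-glucan alone and 5 untreated. The rule was the treatment label, and no measured value was used to choose the tumours. All 11 grew in the pancreas of mice with the genotype label WT after orthotopic implantation of PDA.7940B, a polyclonal line of mouse pancreatic ductal adenocarcinoma derived from the KPC model, a genetically engineered mouse model of the disease. Beta-glucan was given intravenously once at 1.2 mg, with tumours studied 10 days later. The other 11 tumours of the series were given anti-CD40, alone or with beta-glucan. They enter the gene filter, the shared estimate of the spread and 1 side comparison. The untreated group received neither agent. Age, sex and host strain are not in the labels, nor is it stated that every tumour had its own mouse. The p-values below therefore refer to the spread among tumours. RNA came from 5 µm sections of fixed, embedded tumours and was read from the 3′ ends of transcripts, so a value counts 3′ tags of a gene and is not scaled to its length. Genes already well known as myeloid markers in this comparison are left out of the set of named genes, in favour of the wider response. The counts and medians of the gene lists still include such markers, and the closing observations describe some macrophage genes.

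Beta-glucans are chains of glucose from the walls of yeasts and other fungi. They are recognised by Dectin-1, a C-type lectin of macrophages, monocytes, neutrophils and dendritic cells, which signals through Syk and Card9 and can also hand particles on to Toll-like receptors and complement receptors. Myeloid cells that have met beta-glucan are known for a lasting change in metabolism and responsiveness, often called trained immunity. Pancreatic ductal adenocarcinoma is known for dense stroma and abundant myeloid cells.

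Epithelial genes were expressed in both groups, with most markers at lower levels after beta-glucan. Krt19, a ductal keratin, had normalized counts of 6008, 6328, 5083, 5657 and 2918 in untreated tumours 1, 2, 3, 5 and 6 and ran from 1268 through 2594 to 3446 with beta-glucan. Cdh1, which encodes E-cadherin, read 13341, 13226, 14139, 11902 and 7387 in the untreated tumours and from 3572 through 6786 to 6974 with beta-glucan. Throughout, untreated values are normalized counts in that tumour order, and beta-glucan values run from the lowest of 6 through the median to the highest. A ± after a log2 difference is its standard error. Neither gene passed the test, although every treated tumour lay below every untreated tumour for Cdh1. Of 11 epithelial markers 9 had negative log2 differences (median −0.80). In 2 of them, Epcam and Cdh1, all treated tumours lay below all untreated ones, against 2.87% of all genes tested. Epcam missed the threshold (log2 −1.24 ± 0.40, limma adjusted p = 0.068). Of the 11 markers 0 passed with limma, with 4 lower at an unadjusted p under 0.05, 0 called by edgeR and 2 lower by DESeq2. Untreated tumour 6 stood apart from the other untreated tumours: it lay at −124 on the second principal component of the 11 tumours (22.2% of the variance), where the other untreated tumours ran from −4.51 to 67.6, and 16.3% of its reads were of acinar digestive enzymes. Acinar reads made up 0.0227, 0.0174, 2.81 and 3.50% of the other untreated tumours and 0.518 to 15.8% of the beta-glucan tumours. The 13 islet markers tested had positive log2 differences (median 2.52), with 0 called by limma, 6 higher at an unadjusted p under 0.05, 0 called by edgeR and 1 by DESeq2, and their summed normalized counts ran from 4.32 to 6092 untreated and from 649 to 13314 with beta-glucan. Ptprc, which encodes the pan-leukocyte antigen CD45, read 443, 415, 336, 507 and 982 untreated and from 997 through 1263 to 1899.8 with beta-glucan (log2 difference 1.40 ± 0.25, adjusted p = 0.000998), and the groups did not overlap. In whole tumours more cells of a type and more RNA per cell cannot be told apart, and the part of leukocyte content, epithelial content, acinar tissue or islet tissue in the results below was not tested. An acinar covariate and the omission of the most acinar tumours were run as alternatives, and neither measures the part of acinar tissue. The untreated tumours held 7.38 to 9.34 M reads each and the treated ones 7.13 to 8.74 M.

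Of 14278 genes tested, 916 differed between the groups at an adjusted p under 0.05 (limma, Benjamini-Hochberg), which is 6.42%. Of these, 727 were higher with beta-glucan (5.09% of genes tested) and 189 lower (1.32%), and 610 and 90 of them differed at least 2-fold. The median log2 difference of all genes tested was 0.02. All 6 beta-glucan tumours lay above all 5 untreated tumours for 568 genes (3.98%) and below them for 410 (2.87%). The balance of rises over falls depended on scaling: 79.4% of the calls were rises, and after the values were rescaled to equal totals 241 genes were higher and 17 lower, or 93.4% rises. The number of falls also depended on the fit: with the 11 tumours alone 805 genes were higher and 510 lower (61.2% rises), with the replicate number as a block 827 and 606 (57.7%), and with DESeq2 882 and 340 (72.2%). Beta-glucan tumour 5 held the highest mean level of the 727 higher genes and the lowest of the 189 lower genes, and without it 443 were higher and 64 lower. Among the untreated tumours, tumour 6 had the highest mean level of the higher genes. Without untreated tumour 1, 2 or 5 or beta-glucan tumour 3, the lower genes numbered 78, 100, 79 and 104, and the calls in both directions 600, 641, 581 and 610. A set of 158 genes outside the leading myeloid markers was selected by a fixed rule (123 higher, 35 lower). Of these, 57 kept their call under every alternative analysis run and 101 lost it under at least 1, while 0 changed direction. The set was chosen for passing the main test and the alternatives used the same tumours, so these numbers are a description.

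**Figure D1:**
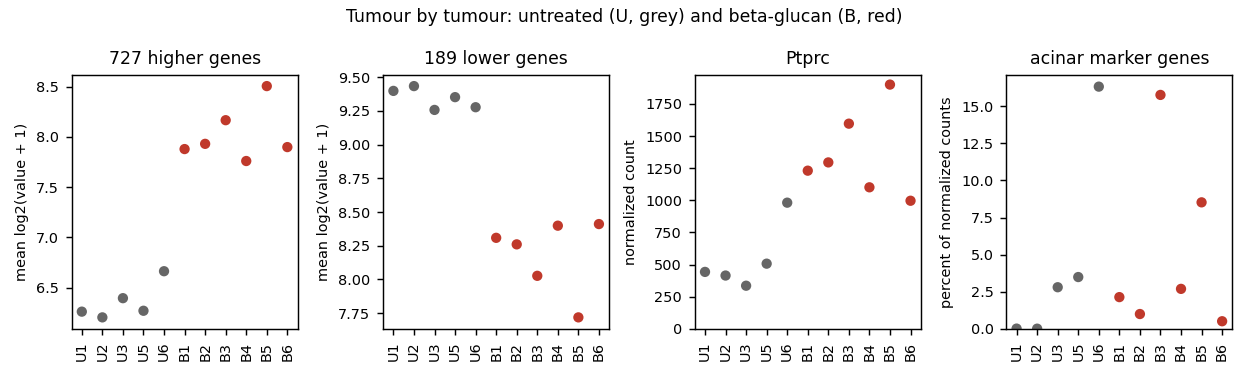
Each point is 1 tumour (U untreated, grey; B beta-glucan, red). The panels show the mean log2(value + 1) of the 727 higher and the 189 lower genes, the normalized count of Ptprc, and the percent of normalized counts from 22 acinar marker genes. The first 2 panels show the genes that the comparison itself called and are a description. Ptprc is at 997 or more in every beta-glucan tumour and at 982 or less in the untreated ones, while the acinar share overlaps between groups.

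**Figure D2:**
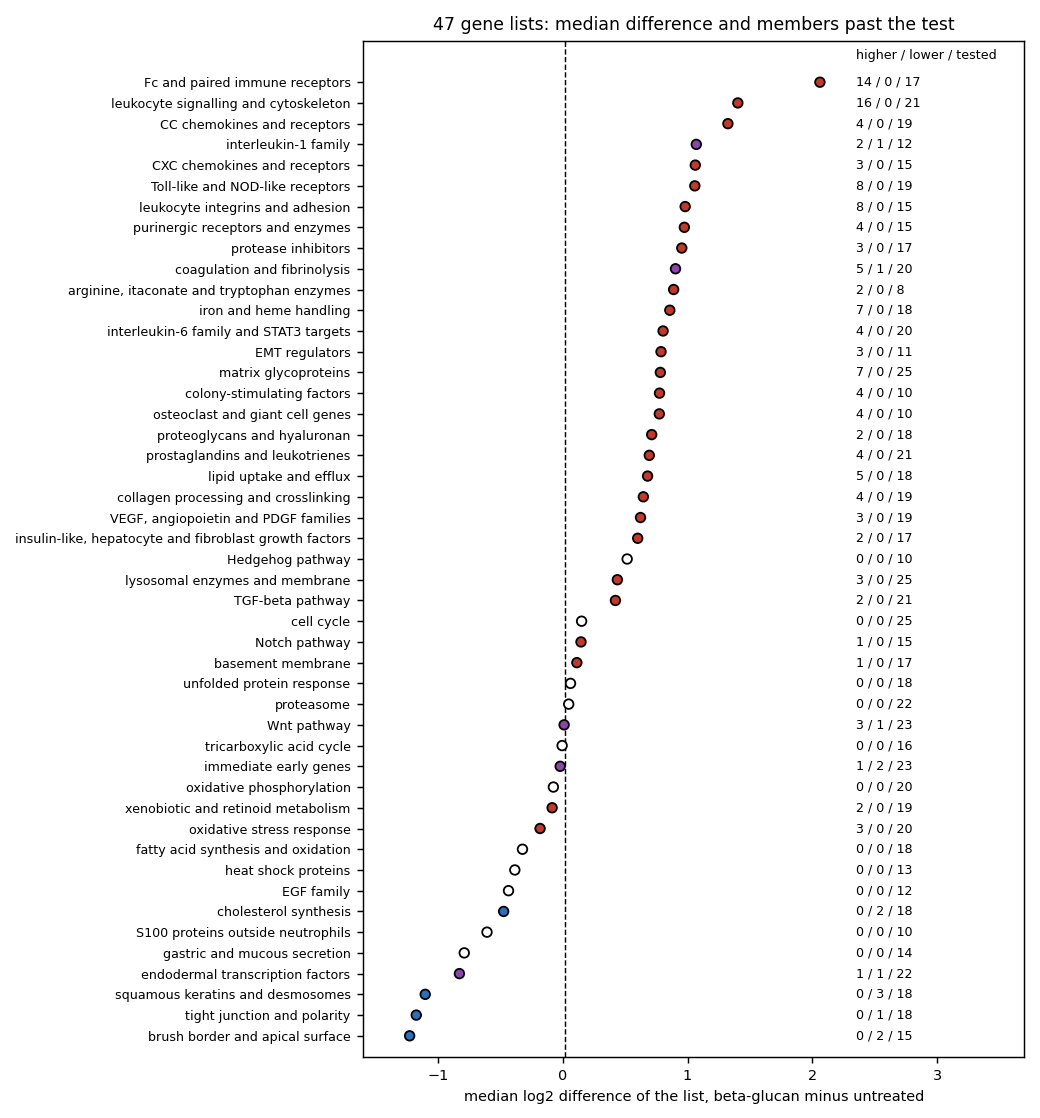
Each circle is the median log2 difference (beta-glucan minus untreated) of 1 of 47 gene lists, with the numbers of members called higher, called lower and tested at the right. Red circles had calls in the higher direction only, blue in the lower only, purple in both and white in neither, and the dashed line is the median of all genes tested, 0.02.

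Receptors of innate recognition formed the list with the largest median of the 47 gene lists that are not cell type markers. Of 17 Fc and paired immune receptors tested, 14 rose and 0 fell (median log2 difference 2.06), and 14 had all beta-glucan tumours above all untreated tumours. Over all genes tested 5.09% rose and 1.32% fell, and 3.98% had all beta-glucan tumours above all untreated tumours. With equal totals 241 of 14278 genes were higher and 17 lower. The list counts here and in the paragraphs that follow are to be read beside these shares. Clec4d, a C-type lectin that binds microbial glycolipids (chr6:123262111-123275265), read 95.7, 70.8, 213, 125 and 95.2 untreated and from 641 through 869 to 1059 with beta-glucan, a rise of 7.3-fold (log2 2.87 ± 0.34, adjusted p = 1.64e-05). The groups did not overlap, with untreated tumour 3 the highest of its group. Its neighbour Clec4n, which encodes the alpha-mannan receptor Dectin-2 (chr6:123229843-123247021), read 661, 486, 807, 863 and 1292 and from 3300.3 through 4095 to 4797 (log2 2.37 ± 0.29, adjusted p = 1.92e-05), again without overlap. The activating receptor Cd300ld and the inhibitory receptor Cd300lf, which binds phosphatidylserine of dying cells, rose 3.89- and 3.41-fold (adjusted p = 2.35e-05 and 3.92e-05). Lilra6, a member of the leukocyte immunoglobulin-like receptors, read 6.66, 7.77, 3.51, 8.02 and 0 and from 32.3 through 44.6 to 128 (log2 3.49 ± 0.74, adjusted p = 0.00469), so its untreated level rests on very few reads.

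Among Toll-like and NOD-like receptors and adaptors, 8 of 19 rose and 0 fell (median 1.06). Tlr2, which recognises bacterial and fungal lipoproteins and cooperates with Dectin-1 (chr3:83836272-83841767), read 28.3, 64.7, 46.5, 46.97 and 20.04 untreated and from 142 through 215 to 377 with beta-glucan (log2 2.45 ± 0.35, adjusted p = 8.03e-05). Every treated tumour lay above every untreated tumour. Tlr13, an endosomal sensor of bacterial ribosomal RNA, rose 3.89-fold (adjusted p = 4.74e-05), and Tlr7, which senses single-stranded RNA, rose 6.23-fold (adjusted p = 0.00537). Tlr1, Tlr4, Myd88, Nod1 and Nlrp3 made up the rest of the 8. After rescaling to equal totals 11 of the 17 Fc and paired receptors and 3 of the 19 Toll-like and NOD-like receptors passed, and without untreated tumour 6 and beta-glucan tumour 3, the tumours of each group with most acinar reads, 14 and 6 passed.

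Of 21 genes of the leukocyte signalling and cytoskeleton list, 16 rose and 0 fell (median 1.40). Plek, the platelet and leukocyte substrate of protein kinase C (chr11:16971206-17052381), read 189.7, 148, 199, 218 and 272 untreated and from 706 through 924 to 1153 with beta-glucan (log2 2.19 ± 0.24, adjusted p = 8.26e-06). Fgr, a Src-family kinase that acts below integrins and Fc receptors, rose 5.1-fold (adjusted p = 1.08e-05). Il2rg, the common gamma chain shared by several interleukin receptors of lymphocytes and myeloid cells, read 500.0, 410.0, 363, 439.9 and 437 and from 1232 through 1592 to 2593 (log2 1.95 ± 0.21, adjusted p = 8.26e-06). None of these 3 genes had overlapping groups. With equal totals 8 of the 21 passed, and 17 without the most acinar tumour of each group.

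Of 10 colony-stimulating factors and receptors tested, 4 rose, all of them receptor chains (Csf2ra, Csf2rb, Csf2rb2, Csf3r), and 0 fell (median 0.78). Csf2rb2, which encodes the mouse interleukin-3 beta chain (chr15:78282507-78305721), read 84.9, 101, 132, 96.2 and 134 untreated and from 440.4 through 523 to 838 with beta-glucan (log2 2.40 ± 0.27, adjusted p = 1.08e-05). Its paralogue Csf2rb, the common beta chain for granulocyte-macrophage colony-stimulating factor, interleukin-3 and interleukin-5, read 519, 384, 566, 778 and 1122 and from 1816 through 2341 to 2858 (log2 1.89 ± 0.29, adjusted p = 0.000168). Neither gene had overlapping groups, and because they are near-identical copies in tandem, reads may be split between them. Csf3r lost its call without the most acinar tumours (adjusted p = 0.0591), and Csf2ra there and with equal totals (adjusted p = 0.0758 and 0.115).

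Start-site windows from RefSeq (GRCm38.p6, 250 bases before to 50 after the annotated start) were available for 11129 of 14276 tested symbols, as 14136 windows. They were searched on both strands for 7 short motifs, counting a window once. A gene with several annotated starts has several windows. GAGGAAGT, a core bound by PU.1, the ETS factor of myeloid cells, was present in 3.20% of all windows, 7.07% of windows of higher genes and 2.05% of windows of lower genes. TTGCNNAA, a core of the C/EBP factors, was in 8.98, 14.4 and 9.74%. The interferon-stimulated response element, GAAA and GAAA with any 2 bases between, was in 3.09, 6.26 and 2.05%, and TGANTCA, the AP-1 core, in 5.80, 8.44 and 7.69%. An NF-kB core, GGGA and TTCC with any 2 bases between, was in 1.56, 2.04 and 2.05%, GGGNGTGG, a Krüppel-like factor core, in 22.7, 22.9 and 22.1%, and a sterol regulatory element, ATCAC and CCAC with any 1 base between, in 0.156, 0.272 and 0.513%. Matches of different motifs overlapped in at most 3 windows for any pair of motifs. These shares are a description of letters in the windows and were not tested. Of the named genes, 6 rose under every alternative run and hold a PU.1 match: Pf4, Cd300ld, Csf2rb2, Cd300lf, Lilra6 and Ltb4r1. The windows of the first 3 are shown as examples, picked with their values in view. Capitals mark motif matches: PU.1 and C/EBP in Pf4, an overlapping pair of PU.1 and NF-kB in Cd300ld, and a Krüppel-like factor match and PU.1 in Csf2rb2. They are printed 5′ to 3′ on the gene's strand: chr5:90772185-90772484 (+), chr11:114989837-114990136 (−) and chr15:78305672-78305971 (−).
Pf4: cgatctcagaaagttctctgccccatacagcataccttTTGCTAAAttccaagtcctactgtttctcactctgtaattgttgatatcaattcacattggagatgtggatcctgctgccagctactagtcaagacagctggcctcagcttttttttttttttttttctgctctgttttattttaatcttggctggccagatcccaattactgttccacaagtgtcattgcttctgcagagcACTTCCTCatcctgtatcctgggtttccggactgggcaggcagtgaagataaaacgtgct
Cd300ld: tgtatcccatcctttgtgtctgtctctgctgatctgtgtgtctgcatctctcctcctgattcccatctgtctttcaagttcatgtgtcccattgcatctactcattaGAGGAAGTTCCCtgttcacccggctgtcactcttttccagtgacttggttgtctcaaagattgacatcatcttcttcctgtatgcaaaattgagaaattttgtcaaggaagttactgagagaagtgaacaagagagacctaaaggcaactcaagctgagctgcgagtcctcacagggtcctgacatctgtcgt
Csf2rb2: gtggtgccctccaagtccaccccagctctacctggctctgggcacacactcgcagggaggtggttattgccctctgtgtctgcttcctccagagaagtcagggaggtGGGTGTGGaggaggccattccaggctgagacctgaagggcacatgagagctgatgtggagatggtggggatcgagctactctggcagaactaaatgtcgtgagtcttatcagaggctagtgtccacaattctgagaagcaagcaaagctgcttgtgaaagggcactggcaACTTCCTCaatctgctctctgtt

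Several chemokines rose. Of 15 CXC chemokines and receptors, 3 rose and 0 fell (median 1.06), and of 19 CC genes 4 rose and 0 fell (median 1.32). With equal totals 2 of the CXC and 1 of the CC genes passed. Pf4, platelet factor 4, a chemokine of platelets and macrophages (chr5:90772435-90773383), read 1082, 1007, 2255, 1260.1 and 1041 untreated and from 3586 through 4822 to 5895 with beta-glucan (log2 1.90 ± 0.30, adjusted p = 0.000271). Untreated tumour 3 was the highest of its group and still below every treated tumour. Of 4 platelet markers tested Clec1b rose (log2 2.18 ± 0.48, adjusted p = 0.00616, with equal totals 0.0779), and Itga2b, Gp1bb and Treml1 did not pass (log2 0.34 ± 0.46, −0.18 ± 0.61 and 0.07 ± 0.81, adjusted p = 0.755, 0.917 and 0.978). Ccl9, a macrophage chemokine that acts on Ccr1, read 361, 306, 435, 344 and 1068 and from 2079 through 2722 to 3989 (log2 2.63 ± 0.33, adjusted p = 2.35e-05), with untreated tumour 6 high in its group and the groups apart. Cxcl12, the stromal ligand of Cxcr4, read 94.8, 102, 550.1, 219 and 351 and from 364 through 757 to 3061 (log2 2.07 ± 0.47, adjusted p = 0.00918), where beta-glucan tumour 5 was by far the highest and 1 treated tumour fell inside the untreated range.

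The interleukin-1 family split. Il1rn, the secreted receptor antagonist (chr2:24336853-24351494), read 752, 449.7, 834, 718 and 1329 untreated and from 1868 through 2853 to 4215 with beta-glucan, a rise of 3.58-fold (log2 1.84 ± 0.28, adjusted p = 0.000205). Il18, an interferon-inducing cytokine that epithelia also make (chr9:50554827-50581840), read 330.3, 391, 225, 243 and 239 and from 83.4 through 116 to 152 (log2 −1.30 ± 0.22, adjusted p = 0.000568), so every treated tumour lay below every untreated one. The fall of Il18 did not pass after rescaling to equal totals (log2 −1.25, adjusted p = 0.0847). Over the whole family 2 of 12 genes rose and 1 fell (median 1.07). Neither Il1a (log2 1.66 ± 0.80, adjusted p = 0.266) nor Il33 (log2 −0.06 ± 0.25, adjusted p = 0.937) passed.

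Enzymes and receptors of small-molecule mediators were among the largest rises. Acod1, the mitochondrial enzyme that makes itaconate in activated macrophages (chr14:103046977-103056573), read 34.1, 12.1, 37.7, 33.2 and 80.1 untreated and from 271 through 483 to 929 with beta-glucan, a 13.9-fold rise (log2 3.79 ± 0.44, adjusted p = 1.48e-05). Gpr84, a receptor for medium-chain fatty acids on activated phagocytes (chr15:103308235-103310612), read 15.8, 10.4, 10.5, 5.73 and 6.26 and from 88.4 through 104 to 149 (log2 3.48 ± 0.43, adjusted p = 2.25e-05). In both genes every treated tumour lay far above the untreated range, with no overlap. In the prostaglandin and leukotriene list 4 of 21 rose and 0 fell (median 0.69). Alox5ap, the protein that presents arachidonic acid to 5-lipoxygenase (chr5:149264767-149288153), read 95.7, 157, 243, 99.7 and 307 and from 626 through 853 to 1201 (log2 2.41 ± 0.29, adjusted p = 1.77e-05), without overlap. Pla2g7, which inactivates platelet-activating factor, rose 4.15-fold (adjusted p = 4.08e-05), and Ltb4r1, the leukotriene B4 receptor, rose 4.61-fold (adjusted p = 0.00139), with untreated tumour 6 reaching into the treated range. Of 15 purinergic genes 4 rose and 0 fell (median 0.97), among them the nucleotide receptors P2ry13 and P2ry14 (2.92- and 2.77-fold, adjusted p = 0.00139 and 0.00464), each with 5 of 6 treated tumours above all untreated tumours. With equal totals 2 of the purinergic genes passed.

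Iron and lipid handling rose in part. Of 18 iron and heme genes, 7 rose and 0 fell (median 0.86). Slc11a1, the phagosomal metal pump also known as Nramp1 (chr1:74375195-74386062), read 52.4, 44.9, 77.2, 50.4 and 26.3 untreated and from 156 through 296 to 339.6 with beta-glucan (log2 2.41 ± 0.32, adjusted p = 3.92e-05), with no overlap. Fth1, the ferritin heavy chain that stores iron, read 19798, 16806, 24242, 22115 and 11789 and from 42173 through 48163 to 67666 (log2 1.46 ± 0.24, adjusted p = 0.000443), again apart, and it has processed copies in the genome whose reads cannot be told from its own. The iron exporter Slc40a1 (log2 −0.20 ± 0.28, adjusted p = 0.773) and the transferrin receptor Tfrc (log2 −0.05 ± 0.38, adjusted p = 0.965) did not pass. Of 18 genes of lipid uptake and efflux 5 rose and 0 fell (median 0.68). Lpl, lipoprotein lipase (chr8:68880491-68907448), read 366, 382, 904, 380.3 and 397 and from 853 through 1274 to 2016 (log2 1.55 ± 0.32, adjusted p = 0.00329), with untreated tumour 3 above the lowest treated tumour. Abca1, the cholesterol efflux pump, read 173, 195, 193, 128 and 225 and from 348 through 416 to 633 (log2 1.29 ± 0.24, adjusted p = 0.00128), and Msr1, a scavenger receptor, rose 2.16-fold (adjusted p = 0.00573). Marco, also of this list, is near 0 in 4 untreated tumours and lost its call in 9 alternatives, among them edgeR (adjusted p = 0.426).

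In the cholesterol synthesis list 17 of 18 log2 differences were negative, with 0 rises and 2 falls (median −0.47). Such a one-sided list was not particular to cholesterol. For fatty acid synthesis and oxidation 16 of 18 were negative, with 0 calls (median −0.32), and for heat shock proteins 11 of 13. The share of negative differences over all genes was not counted. Stard4, a carrier of cholesterol between membranes, read 460.1, 434, 399, 477 and 525 untreated and from 196 through 254 to 328 with beta-glucan (log2 −0.85 ± 0.20, adjusted p = 0.0108), without overlap. Hmgcs1, which feeds the mevalonate pathway, was the other fall (log2 −0.67 ± 0.18, adjusted p = 0.0243), and it lost its call without untreated tumour 1, 3 or 5, without beta-glucan tumour 3 or 5, and without the most acinar tumours, up to adjusted p = 0.0771. Srebf2 (log2 −0.05 ± 0.48, adjusted p = 0.974), the regulator of the pathway, did not pass. After rescaling to equal totals 0 of the 18 cholesterol synthesis genes passed, against 1 of 18 iron and heme genes and 1 of 18 lipid genes. There Fth1 stood at limma adjusted p = 0.0757 (and 0.13 with quantile normalization), Abca1 at 0.112, Msr1 at 0.192 and Stard4 at 0.464. Without the most acinar tumours the numbers past the test were 5 of 18 iron and heme genes and 7 of 18 lipid genes.

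Of 20 antioxidant genes tested, 3 rose and 0 fell, and the median was −0.18. Slc7a11, the cystine importer that feeds glutathione synthesis, read 329, 567, 383, 301 and 115 untreated and from 904 through 1125 to 1640.0 with beta-glucan (log2 1.97 ± 0.36, adjusted p = 0.00115). Sod2, the mitochondrial superoxide dismutase, rose 2.78-fold (adjusted p = 0.00454). In both, untreated tumour 6 was the lowest and the groups did not overlap, and with equal totals neither passed (adjusted p = 0.0611 and 0.112).

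Coagulation genes changed in part. Of 20 coagulation and fibrinolysis genes 5 rose (F7, F10, Serpinb2, Tfpi and Serpinf1) and 1 fell, F5 (median 0.90). With equal totals 2 passed, both higher. F10, coagulation factor X (chr8:13037308-13056676), read 49.9, 77.7, 197, 79.04 and 138 untreated and from 446 through 463 to 845 with beta-glucan, a rise of 5.44-fold (log2 2.44 ± 0.43, adjusted p = 0.000905), with every treated tumour above every untreated tumour. F7, the adjacent gene for factor VII (chr8:13026034-13035809), read 74.9, 61.3, 95.6, 46.97 and 358 and from 183 through 250.4 to 517 (log2 1.64 ± 0.41, adjusted p = 0.0165). Untreated tumour 6 overlapped the treated tumours there, and F7 did not pass with edgeR (adjusted p = 0.0843), with equal totals (0.0996), or without untreated tumour 2 or 5 (0.0544 and 0.0666). Tfpi, the tissue factor pathway inhibitor, read 104, 135, 118, 115 and 63.9 and from 145 through 220.1 to 351 (log2 1.11 ± 0.24, adjusted p = 0.00559, with equal totals 0.194). The initiator F3, tissue factor, did not pass (log2 −0.48 ± 0.84, adjusted p = 0.819).

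Adhesion molecules of leukocytes rose in 8 of 15 genes, with 0 falls (median 0.98). Itgb2, the shared beta-2 integrin chain (chr10:77530252-77565708), read 159, 211, 211, 157 and 85.1 untreated and from 668 through 995 to 1811 with beta-glucan (log2 2.69 ± 0.40, adjusted p = 0.000162). Itgal, its LFA-1 partner, read 90.7, 69.9, 57.03, 63.01 and 91.4 and from 259.7 through 352 to 587 (log2 2.32 ± 0.28, adjusted p = 1.77e-05). For both, every treated tumour was above every untreated tumour. With equal totals 4 of the 15 passed. Of 10 osteoclast and giant cell genes 4 rose and 0 fell (median 0.77), among them the transcription factor Mitf (3.41-fold, adjusted p = 0.000271) and the proton pump subunit Atp6v0d2 (4.66-fold, adjusted p = 0.000289), both without overlap, and with equal totals 2 of these 10 passed.

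**Figure D3:**
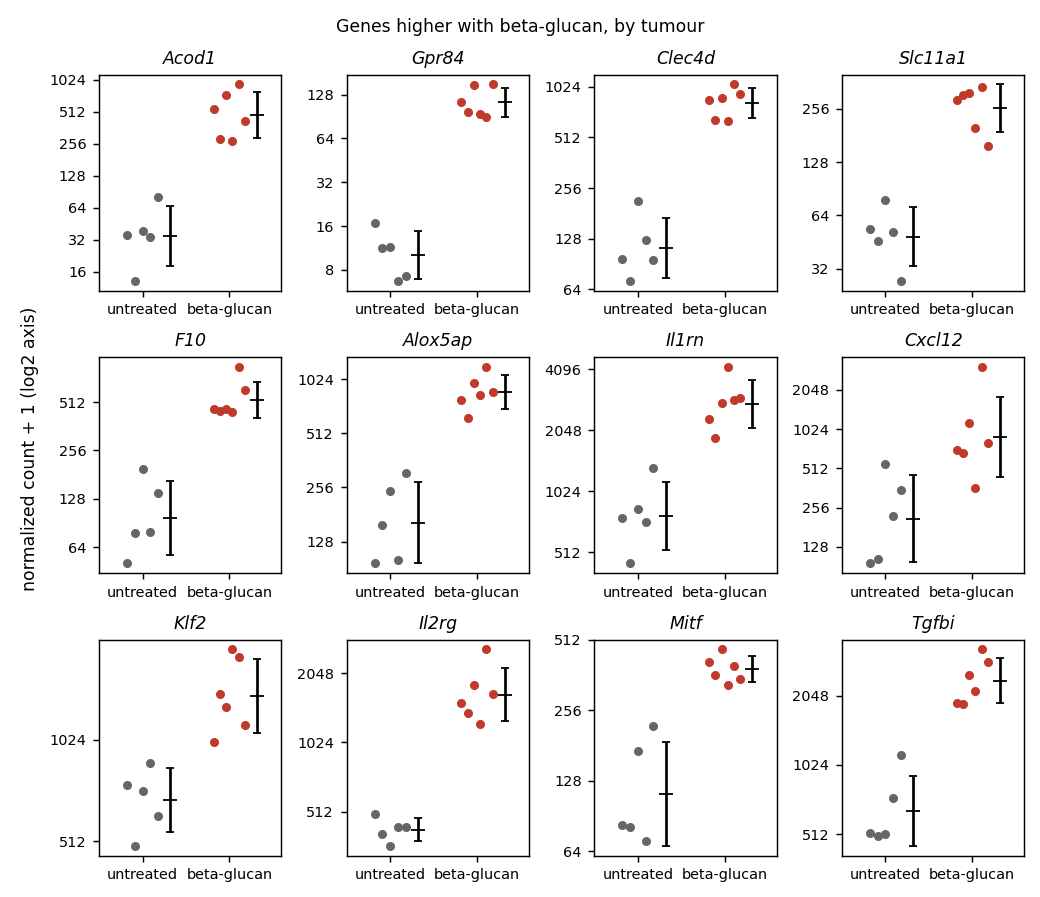
Each point is the normalized count plus 1 of 1 tumour on a log2 axis for 12 genes that rose; the bar beside each group is the mean ± SD of the log2 values (n = 5 untreated, grey; n = 6 beta-glucan, red). The groups are apart in every panel except Cxcl12, in which 1 treated tumour lies inside the untreated range.

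Stromal genes rose in part. Of 25 matrix glycoproteins 7 rose and 0 fell (median 0.78), and of 19 collagen-processing genes 4 rose and 0 fell (median 0.65). Tgfbi, a secreted adhesion protein induced by TGF-beta (chr13:56609523-56639562), read 518, 502, 514, 734 and 1123 untreated and from 1883 through 2334 to 3245 with beta-glucan (log2 1.88 ± 0.27, adjusted p = 0.000101), without overlap. Adamts2, the protease that trims procollagen, read 346, 193, 591, 471 and 868 and from 1084 through 1396 to 2024 (log2 1.67 ± 0.32, adjusted p = 0.00188), also apart. Rspo3, a secreted amplifier of Wnt signals made by fibroblasts and endothelium, read 8.32, 5.18, 18.4, 16.04 and 2.50 and from 18.1 through 52.6 to 178 (log2 2.54 ± 0.54, adjusted p = 0.00482), with beta-glucan tumour 5 far above the rest and tumour 4 inside the untreated range. Tgfbr3, the TGF-beta co-receptor betaglycan, rose 3.57-fold (adjusted p = 0.00894), with 4 of 6 treated tumours above all untreated ones. With equal totals 1 of the collagen-processing genes and 0 of the matrix glycoproteins passed, and Mfap2, a microfibril protein that had passed, is an example (log2 1.43 ± 0.31, adjusted p = 0.00498, with equal totals 0.0875). Contractile markers of myofibroblasts and pericytes gave 1 rise, Rgs5, in 14 (median 0.34), and Acta2 read 3822, 3307, 5193, 3045 and 3406 and from 3116 through 4649 to 5283 (log2 0.27 ± 0.25, adjusted p = 0.634). Rgs5 itself passed narrowly (adjusted p = 0.049) and not with equal totals (0.29), nor when any tumour but beta-glucan 4 was left out (highest 0.143).

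Lymphatic endothelial markers rose: 5 of 6 tested, against 5.09% of all genes tested, with a median log2 difference of 1.57. Mmrn1, multimerin 1, an extracellular protein of lymphatic vessels (chr6:60924976-60989378), read 13.3, 0, 7.02, 19.5 and 27.5 untreated and from 55.7 through 92.1 to 130.1 with beta-glucan (log2 3.27 ± 0.63, adjusted p = 0.00208). Reln, reelin, which lymphatic endothelium secretes to smooth muscle (chr5:21884454-22344702), read 2.50, 12.1, 1.75, 2.29 and 17.5 and from 27.8 through 45.4 to 65.5 (log2 2.94 ± 0.53, adjusted p = 0.000998). Flt4, the receptor VEGFR3 for the lymphatic growth factors VEGF-C and VEGF-D (chr11:49609263-49652739), read 57.4, 54.4, 55.3, 53.8 and 111 and from 139 through 191 to 281 (log2 1.58 ± 0.28, adjusted p = 0.000934). In these 3 genes all treated tumours were above all untreated tumours, and the call held in every alternative run. Prox1, the transcription factor of lymphatic identity, which ductal and islet cells can also express, passed (log2 1.57 ± 0.45, adjusted p = 0.0368) but not with equal totals (0.0605), quantile normalization (0.0526), without the most acinar tumours (0.0862), or without untreated tumour 1, 2 or 5 or beta-glucan tumour 2, 3 or 5 (highest 0.117). Pdpn, podoplanin, which fibroblasts and macrophages also express, overlapped between groups because untreated tumour 6 read 2405, and it lost its call in 14 alternatives, among them edgeR (adjusted p = 0.172), DESeq2 (0.0985), equal totals (0.147) and the omission of 8 of the 11 tumours in turn (all but untreated 3 and 6 and beta-glucan 4, highest 0.11). Lyve1, which lymphatic vessels share with some macrophages, read 111, 81.1, 80.7, 61.9 and 153 and from 151 through 204 to 598 and missed the threshold (log2 1.33 ± 0.41, adjusted p = 0.0504). Ackr4, a scavenger receptor for the chemokines Ccl19 and Ccl21, was at 0, 0, 3.51, 0 and 2.50 untreated and from 1.90 through 17.9 to 108 with beta-glucan (log2 3.50 ± 0.76, adjusted p = 0.00551), too few untreated reads for a firm fold.

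Of the 47 gene lists that are not cell type markers, the 3 with the lowest medians were epithelial. Of 15 brush border genes 2 fell (median −1.23), of 18 desmosome and squamous keratin genes 3 fell (median −1.10), of 18 tight junction genes 1 fell (median −1.17), and 0 rose in these lists. All treated tumours lay below all untreated tumours for 4, 8 and 6 of these genes, in the same order, against 2.87% of all genes tested. How many fell depended on the fit: DESeq2 called 3, 5 and 4 lower, limma on the 11 tumours alone 6, 8 and 8, and the blocked fit 6, 9 and 10, while equal totals left 1 in each list and the omission of beta-glucan tumour 5 left 1, 1 and 0. Vsig2, an immunoglobulin-domain protein of gastric and other mucosae (chr9:37539255-37544205), read 222, 286, 198, 139.8 and 160.3 untreated and from 20.2 through 47.1 to 91.2 with beta-glucan, a 4.57-fold fall (log2 −2.19 ± 0.45, adjusted p = 0.00354). Il17re, the epithelial receptor chain for interleukin-17C (chr6:113458484-113470758), read 667, 1048, 647, 627 and 306 and from 69.5 through 149 to 314 (log2 −1.96 ± 0.36, adjusted p = 0.00145), and Paqr5, a membrane progestin receptor, read 752, 665, 674, 773 and 539.7 and from 55.6 through 246 to 307 (log2 −1.88 ± 0.40, adjusted p = 0.00477). Vsig2 and Paqr5 had no overlap, and in Il17re beta-glucan tumour 6 lay just above untreated tumour 6. Eps8l2, a regulator of actin at apical membranes, and Pdzk1ip1, a membrane partner of a sodium-glucose transporter, fell 3.24- and 3.76-fold (adjusted p = 0.00475 and 0.0124). These 5 genes kept their call in every alternative run, including equal totals.

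The falls also included Klf5, the 1 fall in the list of endodermal transcription factors. Klf4 belongs to the list of immediate early genes, in which 1 of 23 rose and 2 fell. Klf5, a Krüppel-like factor of proliferating gut and ductal epithelium (chr14:99298691-99315036), read 6478, 7091, 4921, 4517 and 5162 untreated and from 980.2 through 2116 to 2988 with beta-glucan (log2 −1.59 ± 0.37, adjusted p = 0.00938). Klf4, of the same family and tied to epithelial differentiation, read 1249, 1177, 1252, 1433 and 1789 and from 526 through 636 to 907 (log2 −1.05 ± 0.19, adjusted p = 0.00115), while Klf2, known from quiescent endothelium and lymphocytes, read 750.4, 495, 723, 872 and 609.8 and from 1005 through 1337 to 1893 and rose (log2 1.02 ± 0.17, adjusted p = 0.000481). All 3 had groups that did not overlap. Ephb3, an ephrin receptor that positions epithelial cells, fell 2.52-fold (adjusted p = 0.00105), and Duox2, an epithelial hydrogen peroxide source, fell 4.07-fold (adjusted p = 0.0155). With equal totals none of these 5 passed: adjusted p was 0.134 for Klf5, 0.149 for Klf4, 0.145 for Klf2, 0.116 for Ephb3 and 0.0617 for Duox2. Of 22 endodermal transcription factors the remaining call was the rise of Prox1 (median −0.83), and Hnf4a (log2 −0.34 ± 0.79, adjusted p = 0.872), Foxa1 (log2 −0.32 ± 0.91, adjusted p = 0.897) and Sox9 (log2 −0.26 ± 0.25, adjusted p = 0.627) did not pass. In the fit of the 11 tumours alone, with or without the block, 8 of the 22 were lower.

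**Figure D4:**
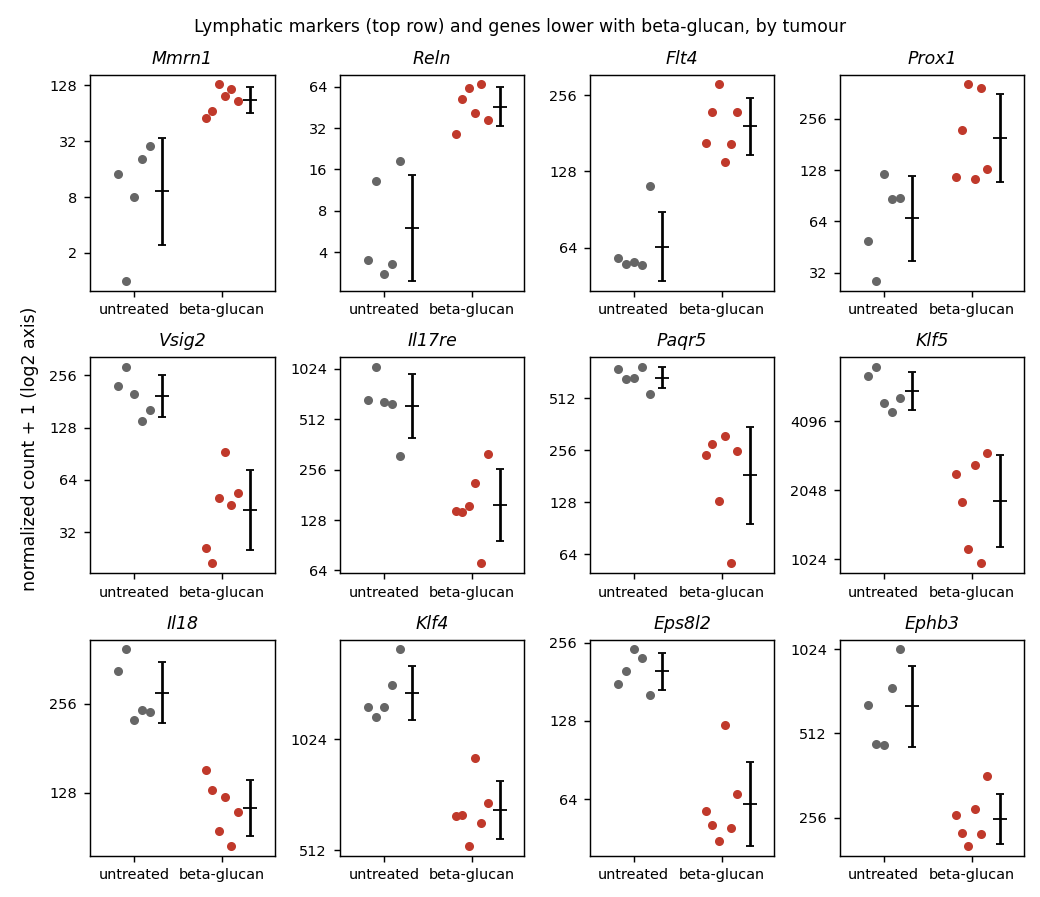
Each point is the normalized count plus 1 of 1 tumour on a log2 axis; the bar beside each group is the mean ± SD of the log2 values (n = 5 untreated, grey; n = 6 beta-glucan, red). The top row shows lymphatic markers, in which Prox1 alone has overlapping groups, and the lower rows show genes that fell, in which Il17re alone does. After rescaling to equal totals Prox1, Klf5, Klf4, Il18 and Ephb3 did not pass.

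Core cellular programmes gave no call. In the lists for the unfolded protein response, heat shock proteins, oxidative phosphorylation, the tricarboxylic acid cycle, the proteasome and the cell cycle, 0 of 114 genes passed with limma, 2 were higher and 7 lower at an unadjusted p under 0.05, edgeR called 0 and DESeq2 called 1 higher and 2 lower. The medians ran from −0.38 (heat shock proteins) to 0.15 (cell cycle). Heat shock proteins had 5 of the 7 lower genes. Among mast cell, basophil and eosinophil markers, Siglecf and Hdc rose of 10 tested, while Mcpt8, a basophil protease, read 235, 147, 249, 411 and 369 and from 148 through 261 to 390.5 (log2 −0.11 ± 0.52, adjusted p = 0.942). Siglecf did not pass with edgeR (adjusted p = 0.0703), and Hdc not with equal totals (0.0751), nor when any tumour but untreated 3 and beta-glucan 4 was left out (highest 0.0859). Of the 22 acinar markers 0 passed with limma, edgeR or DESeq2, and 0 had an unadjusted p under 0.05, although the median log2 difference was 2.41.

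The same agent was also given on top of anti-CD40, an agonist antibody against a receptor of antigen-presenting cells, in tumours that share none with the comparison above: combination (n = 5) against anti-CD40 alone (n = 6). Anti-CD40 alone was given at 0.1 mg, and both groups were studied 10 days after treatment. The labels give no dose of either agent for the combination group. That comparison called 212 of 14278 genes (1.48%), 94 higher and 118 lower. Of the 916 genes called with beta-glucan alone 80 were also called there, all in the same direction, which is 8.73% of the first list and 37.7% of the second. Both comparisons used the same estimate of the spread of each gene, so a gene with a small spread passes more easily in both. The part of this in the overlap was not tested. The 727 higher genes had a median log2 difference of 0.64 there against 1.54 with beta-glucan alone, with 682 positive. The 189 lower genes had −0.31 against −0.97, with 150 negative. Both sets were chosen for passing the first comparison, so their medians in it are a description and tend to be large. The share of positive differences over all genes was not counted. Starting levels also differed. The 727 genes averaged log2 6.20 to 6.66 in untreated tumours and 7.68 to 8.80 with anti-CD40 alone. The 189 genes averaged 9.26 to 9.43 and 7.55 to 8.39. The part of these levels in the smaller medians was not tested. Gpr84 (log2 2.12, adjusted p = 0.0185), Acod1 (2.19, 0.0185), Il1rn (1.59, 0.00773), Plek (1.41, 0.00544) and Abca1 (1.30, 0.0101) rose on top of anti-CD40, and Klf5 (−1.52, 0.0398) and Stard4 (−0.82, 0.0405) fell. The lymphatic genes did not pass there: Mmrn1 −0.39, Reln 0.11 and Flt4 −0.27, adjusted p = 0.84, 0.958 and 0.719. The test of the difference between the 2 comparisons gave log2 −3.66 ± 0.90, −2.83 ± 0.74 and −1.84 ± 0.40 for these genes (adjusted p = 0.193, 0.209 and 0.1), none of which passed. Across all genes that test called 3 (0.021%): Dcstamp, Tuba1a and Glycam1.

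**Figure D5:**
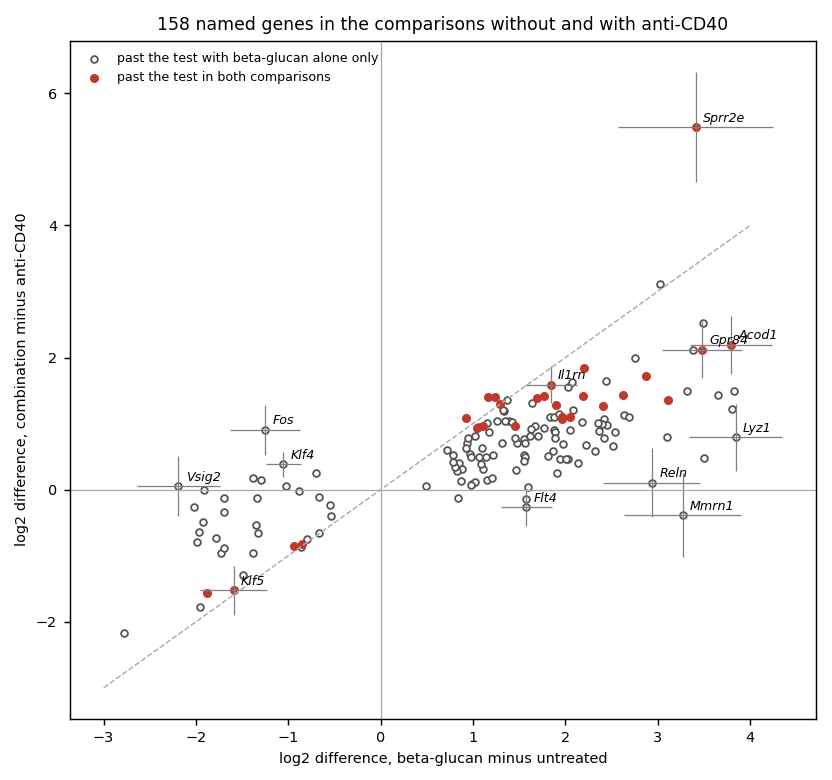
Each circle is 1 of the 158 named genes, placed by its log2 difference with beta-glucan alone (horizontal, n = 6 against 5) and on top of anti-CD40 (vertical, n = 5 against 6); error bars on the labelled genes are standard errors, and the dashed line marks equal differences. All genes shown were chosen for passing the first comparison, so their horizontal values are a description. Filled genes passed in both, among them Acod1, Gpr84 and Il1rn, while Mmrn1, Reln and Flt4 lie near 0 on the vertical axis.

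By level, the highest rises among genes outside the leading markers included B2m, the light chain of MHC class I (chr2:122147686-122153083), which read 45867, 27171, 19293, 20289 and 30045 untreated and from 43718 through 55329 to 89100.5 with beta-glucan (log2 1.09 ± 0.21, adjusted p = 0.00232), with 5 of 6 treated tumours above all untreated tumours. It did not pass with equal totals (adjusted p = 0.134) or quantile normalization (0.214). Among the falls, Fkbp4, a chaperone partner of Hsp90, read 5654, 3712, 3942, 6411 and 5508 and from 1797 through 2707 to 3069 (log2 −0.94 ± 0.21, adjusted p = 0.00692), without overlap, and did not pass with equal totals (0.181). Lyz1, a lysozyme with a near-identical neighbour in Lyz2, showed the largest log2 rise of the named genes and read 26.6, 16.4, 10.5, 21.8 and 23.8 untreated and from 125 through 262 to 565 with beta-glucan (log2 3.85 ± 0.51, adjusted p = 4.53e-05), and Ly6i, a member of the Ly6 cluster that shares sequence with Ly6c2, rose 14-fold (adjusted p = 0.00011). Reads of these 2 genes may be split with their copies.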

How the data were processed

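The data are 1 deposited table of normalized counts, 17966 genes by 22 tumours, of which the 11 untreated and beta-glucan tumours are described. STAR, DESeq2 and the build mm10 are named in the submitters' processing notes, with no version. The deposited values are a signal, reads per gene over a size factor of the tumour. Which program counted the reads, with which annotation and strand setting, is not given in the sources used here, so overlapping and antisense genes and near-identical copies cannot be told apart with certainty. All values were whole multiples of 1 step per tumour (100% of 395252 values within 0.001 reads), so reads were recovered; for 2 tumours the step was within 1% of 1. Rn45s took 1.82 to 3.74% of the reads of these tumours, and 0 columns lacked a sample. Over 25 pairs within a group, chi-square per degree of freedom was at least 13.4, so none is the same library counted again. The check cannot show whether 2 samples came from 1 tumour or 1 mouse.

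The 14278 genes that reached 10 in 5 or more of 22 tumours were tested with limma 3.58.1 (R 4.3.3) on log2(value + 1). All 4 groups entered the fit and shared 1 spread, with trended, robust moderation, two-sided, Benjamini-Hochberg threshold 0.05. A fold is 2 to the power of the log2 difference and understates changes of low genes. EdgeR 4.0.16 and DESeq2 1.42.0 were run on recovered reads. The other alternatives were another pseudocount, 2 filters, 2 scalings, fewer tumours, the replicate number, an acinar covariate and leaving out tumours.

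The rule for named genes took the 12 called genes that rose most and the 12 that fell most (group mean of 30 or more in the higher group), up to 4 called members with the smallest p of each of 59 gene lists, and the 6 with the smallest p outside the lists and the 6 with the highest level in each direction. Predicted genes and the leading myeloid markers were left out. A few genes that the rule takes are not reported here. Genes given as not passed, and members named only in a count, were picked with their values in view. The comparison, gene lists and motifs were chosen with earlier results of these data known, so no list is tested. Coordinates are GENCODE M21 (14141 of 14276 symbols placed) and start-site windows RefSeq. No pairing of tumours by replicate number was seen: 0 of 5 correlations exceeded 0.1, too few to exclude one. Precision is limited by 5 and 6 tumours.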

Additional observations from a re-analysis of the deposited data

Results flagged for a closer look

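In 12 of 314 checked sets of 1 named gene in 1 group, 1 tumour lay far from the rest, and chance alone gives about 1 in 20. In untreated tumours, tumour 3 was far above the others for Lpl (normalized count 904) and Pf4 (2255). Untreated tumour 6 was far above for Flt4 (111), Ccl9 (1068) and P2ry13 (300.5) and far below for P4ha3 (121). In the beta-glucan group, tumour 3 was far below the others for Marco (11.02), tumour 5 far below for Prom1 (694) and far above for Cyp1b1 (2000.1) and Kctd12 (810.3), tumour 2 far above for Dsg2 (888) and tumour 6 far below for Pabpc1 (2748).

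For 3 genes the response to beta-glucan differed by test between tumours without and with anti-CD40 (interaction in limma, Benjamini-Hochberg over all genes). Tuba1a, an alpha-tubulin, rose with beta-glucan alone from 1857, 1428, 1850.5, 1831 and 995 in untreated tumours 1, 2, 3, 5 and 6 to between 3314 and 3895 (log2 difference 1.21 ± 0.22, adjusted p = 0.00123), while on top of anti-CD40 the log2 difference was −0.52 (adjusted p = 0.231). Its interaction was −1.74 ± 0.31 (adjusted p = 0.0486). Dcstamp, needed for macrophage fusion, had an interaction of −2.92 ± 0.50 (adjusted p = 0.0385), with a log2 rise of 4.39 with beta-glucan alone and 1.47 on top of anti-CD40. Glycam1, a mucin of high endothelial venules, had an interaction of −4.60 ± 0.75 (adjusted p = 0.0318). It had 0 reads in all 5 untreated tumours and 7.60 to 32.8 normalized counts with beta-glucan. The mean was 69.8 with anti-CD40 alone and 45.4 with the combination (log2 difference −0.61, limma adjusted p = 0.643). With 0 untreated reads, the size of its rise and of its interaction depends on the 1 added before the logarithm.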

How the results depend on the processing

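All alternatives kept more higher than lower genes. Rescaling to equal totals gave 258 calls (241 higher, 17 lower, against 727 and 189), and the cause was not tested. It kept 255 of the 916 calls and 66 of the 158 named genes (58 higher, 8 lower). With the 11 tumours alone 510 genes were lower, and DESeq2 called 340 lower, the cause again not tested. No pairing by label number was seen (correlations −0.107 to 0.0827). With the replicate number as a block in the 11 tumours 1433 genes were called, 606 of them lower. For 1 of 5 numbers the tumours correlated best with their own number. Leaving out single tumours gave 507 to 1098 calls, 443 to 887 higher and 64 to 211 lower, lowest without beta-glucan tumour 5. Leaving out the most acinar tumour of each group was added after seeing the data and gave 882 calls (743 higher, 139 lower), 661 of them shared with the 916. Quantile normalization, another pseudocount, 2 filters, the acinar covariate and edgeR moved the counts in either direction by less than 1.5 times, and edgeR kept 135 of the named genes. No scaling moved the median of all genes by over 0.1 on the log2 scale. The recovered depth of 7.13 to 9.34 M reads leaves genes such as Ackr4, Lilra6 and Marco at few reads in untreated tumours. No call changed direction in any alternative among the named genes, which were chosen for passing the main test in the same tumours.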

Other observations

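Untreated tumour 6, the untreated tumour with most acinar reads, carried a high level of several macrophage genes and not of others. Csf1r, the receptor of macrophage colony-stimulating factor, read 5542, 4696, 3886 and 6067 in untreated tumours 1, 2, 3 and 5, and 30451 in tumour 6, above the beta-glucan tumours (10812 to 16730.3). C1qa, a complement subunit of macrophages, read 4906, 3797, 3828, 6399 and 27196 in the same order, and 6432 to 10409 with beta-glucan. Its partner C1qb read 2368, 2096, 1810.1, 3108 and 8823, and 3515 to 6236. The third subunit, C1qc, read 645, 879.5, 767, 843 and 684, so tumour 6 lay inside the range of its group, and beta-glucan tumours read 1358 to 2323. Adgre1, the macrophage antigen F4/80, read 185, 170.0, 233, 202 and 313, and 360.1 to 754 with beta-glucan. Csf1r, C1qa and C1qb did not pass the comparison of the groups (adjusted p = 0.2, 0.723 and 0.268), whereas C1qc (log2 difference 1.11 ± 0.22, adjusted p = 0.00276) and Adgre1 (1.07 ± 0.24, adjusted p = 0.00792) did. Fcna, a ficolin, and Fcrls, an Fc receptor-like gene, were also highest in tumour 6, at 543 and 1077, against 52.4 to 137 and 107 to 212 in the other untreated tumours. These genes were chosen after their values were seen.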
